A study of Mus musculus with 18 samples.

Results

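The genes described here encode the chaperonins, the barrel-shaped protein folding machines of the cell. The list held 10 genes. It comprised the 8 subunits of the cytosolic chaperonin TRiC (Tcp1, Cct2, Cct3, Cct4, Cct5, Cct6a, Cct7 and Cct8) and the mitochondrial pair Hspd1, which encodes Hsp60, and Hspe1, which encodes its lid Hsp10. Their rows were looked up by gene name among the 40327 genes of the 129 count tables and the 39147 genes of the Cast count tables. Of these 10 genes, 8 were found in both sets of tables, and Cct6a and Hspd1 are not analysed here. Cct7 had between 0 and 6 reads per sample and table and was not tested, which left 6 TRiC subunits and Hspe1.

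TRiC, also called CCT, is a pair of stacked rings, each built from 8 different subunits that every ring holds in a fixed order. It folds tubulin, actin and many proteins with beta-propeller domains, using ATP to close a lid that is part of the subunits themselves. Hsp60 does related work in the mitochondrial matrix and needs Hsp10 as a separate lid. Resting B cells are small and grow before they divide after activation, with a large increase in protein synthesis.

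The RNA came from splenic CD23+ B cells of female F1 129S1/Cast mice of genotype Xist+/-, a genotype that the naive and the stimulated group share. CD23, an IgE receptor, marks mature follicular B cells. Per the labels X inactivation is skewed in these mice, so that the Cast X chromosome is the silent one. All chaperonin genes analysed are autosomal. The naive group of 3 samples was untreated, and the 3 samples of the other group had 1 µM CpG added in vitro for 24 h. CpG oligonucleotides mimic bacterial DNA and are sensed by B cells through TLR9. The series lists 18 samples, and the others are not analysed here. The labels give no age and do not say whether the samples of a group came from separate mice or cultures, so p-values measure the spread between these samples, which may be technical.

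Each sample had a table of reads assigned to the 129 genome and one of reads assigned to the Cast genome, with 1987266 to 2928236 reads in genes per 129 table and 2465073 to 3321753 per Cast table. Levels are given as CPM, counts-per-million gene reads of the same strain table, unless reads are named. The B cell marker genes summed to 12059 to 16035 CPM in naive and 4080 to 5643 CPM in stimulated samples of the 129 tables, and 9 of 10 markers were lower with CpG without overlap of the groups, as were 32.2% of all tested genes. Macrophage markers were also present, at a sum of 2616 to 5817 CPM in the naive samples, and fell to 25.2 to 31.6 CPM with CpG in the 129 tables. In the Cast tables the macrophage sum went from 2254 to 5168 CPM down to 20.7 to 28.0 CPM. These markers move with every fold change below, and their part in the results was not tested. In bulk RNA of this kind, a change in the number of cells of a type and a change in RNA per cell cannot be told apart.

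A link between promoter sequence and fold change was not tested. Stretches of sequence before 3 of the TRiC genes are shown first. They are the parts of RefSeq promoter windows (GRCm38.p6, from 250 bases before to 50 bases after the gene's start) that lie outside any annotated exon, written 5′ to 3′ on the gene's strand. Capitals mark the GC box GGGCGG, the CCAAT box CCAAT and the ETS site CCGGAAG, searched on both strands. Cct2 lies on chr10:117063853-117064102 (minus strand), Cct3 on chr3:88297000-88297115 (plus strand) and Cct8 on chr16:87495874-87495998 (minus strand).
Cct2: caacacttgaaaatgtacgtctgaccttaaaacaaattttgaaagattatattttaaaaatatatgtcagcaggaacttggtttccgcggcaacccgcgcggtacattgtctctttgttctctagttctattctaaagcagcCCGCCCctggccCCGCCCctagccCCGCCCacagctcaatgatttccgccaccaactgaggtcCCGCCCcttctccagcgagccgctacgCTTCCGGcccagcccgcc
Cct3: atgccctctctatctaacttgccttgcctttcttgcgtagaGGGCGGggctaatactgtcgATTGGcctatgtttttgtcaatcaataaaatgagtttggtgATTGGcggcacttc
Cct8: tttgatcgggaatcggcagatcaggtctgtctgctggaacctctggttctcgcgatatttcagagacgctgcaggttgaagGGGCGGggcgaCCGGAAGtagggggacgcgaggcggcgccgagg

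The Cct2 stretch of 250 bases held 4 GC boxes and 1 ETS site. That of Cct8, of 125 bases, held 1 GC box and 1 ETS site. That of Cct3, of 116 bases, held 1 GC box and 2 CCAAT boxes. The whole windows of these genes held the same counts, except for 5 GC boxes in Cct2. For Tcp1, with no stretch shown, the whole window held 1 CCAAT box, 2 GC boxes and 1 ETS site. Over the 32851 RefSeq windows of 300 bases, 35.7% held a GC box, 37.4% a CCAAT box and 8.86% this ETS site. These shares are for whole windows and cannot be set against the shorter stretches. The E-box CACGTG, which MYC and related factors bind, was in no window of the 6 tested genes that had one, against 7.15% of all windows. The cAMP response element TGACGTCA was in none either, against 1.79%. Cct4 had no window in the table used. The core of the heat shock element, searched as GAANNTTC and as TTCNNGAA, which can overlap each other, was found in 7.86% and 8.52% of all windows. Among the tested genes it was in the windows of Hspe1 and Cct5. The matched bases are shown in capitals within 30 bases on the gene's strand, at chr1:55088053-55088082 (plus strand) for Hspe1 and at chr15:31601862-31601891 (minus strand) for Cct5.
Hspe1: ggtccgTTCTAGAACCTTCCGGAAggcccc
Cct5: acagcggccgaTTCCAGAAgctactctgcg

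The Hspe1 run joined 3 overlapping matches and began 89 bases before the annotated start. Cct5 held 1 match, which began 34 bases before the start. Unlike the stretches above, these bases were not chosen to lie outside annotated exons. The whole window of Hspe1 also held 2 GC boxes and 2 ETS sites, and both ETS sites share letters with the run. That of Cct5 held 1 GC box. A match describes these letters and is not a measured binding site.

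With CpG, Tcp1, Cct2, Cct4, Cct8 and Hspe1 rose on both alleles, by 2.64-fold to 5.80-fold on the 129 allele and by 2.80-fold to 5.34-fold on the Cast allele. Cct5 rose on the Cast allele and narrowly missed the threshold on the 129 allele, and Cct3 passed on neither. The test was edgeR's quasi-likelihood test with Benjamini-Hochberg adjustment over all genes, and its threshold an adjusted p of 0.05. By it, 5 of the 7 tested members were higher on the 129 allele, where 28.2% of all tested genes were. The Cast count was 6 of 7, where 30.7% of all tested genes were higher. With the reads of both alleles summed per gene it was again 6 of 7, against a background of 34.2%. No member was called lower, a class that held 27% of tested genes on the 129 allele and 31.5% on the Cast allele. The median log2 fold change of the 6 TRiC subunits was 1.56 on the 129 allele and 1.81 on the Cast allele, where the medians over all genes tested were -0.01 and -0.04.

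**Figure D1:**
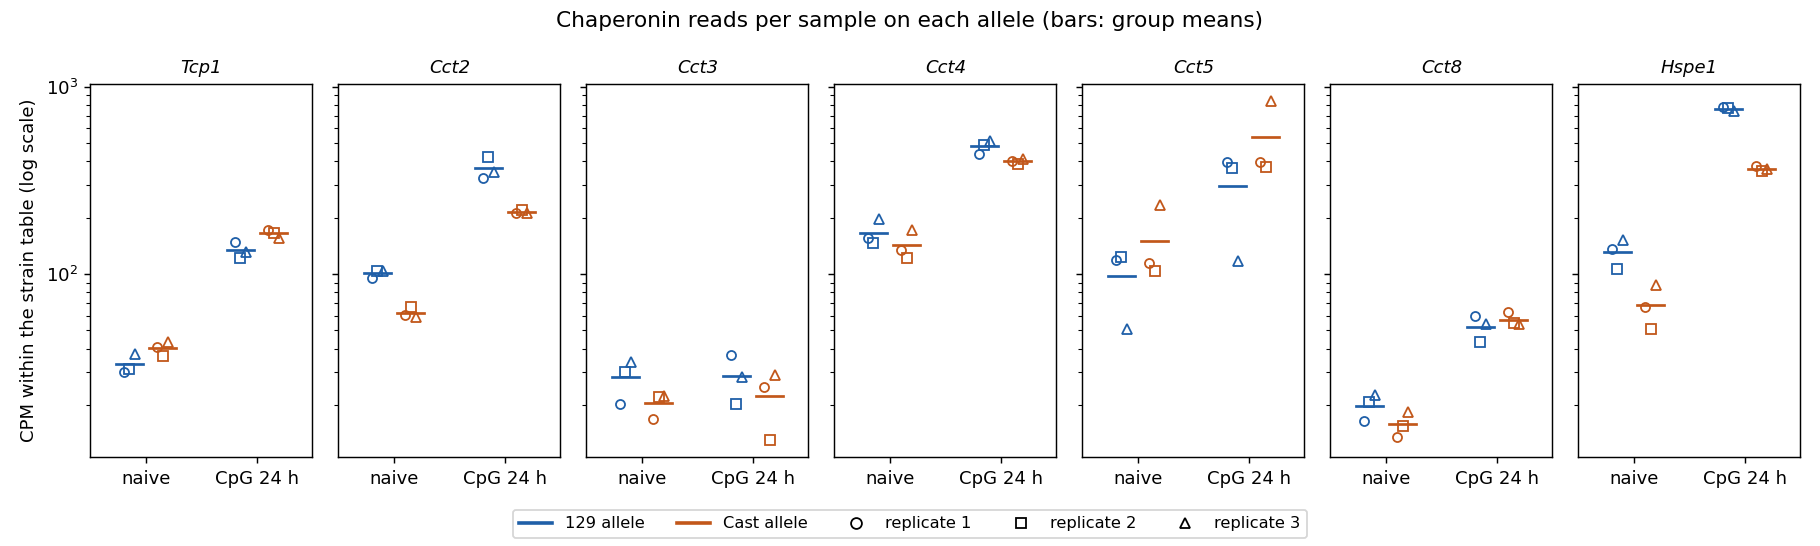
CPM of each tested chaperonin gene (log axis) in the 3 naive and 3 CpG samples, for the 129 allele (blue) and the Cast allele (orange); symbols give the replicate and bars the group means. In Tcp1, Cct2, Cct4, Cct8 and Hspe1 all stimulated samples lie above all naive ones on both alleles, in Cct3 the groups overlap, and in Cct5 the samples numbered 3 stand apart.

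Tcp1 encodes the alpha subunit (CCT1), the founding member of the family. On the 129 allele it had 30.1, 31.2 and 37.6 CPM without CpG and 148, 122 and 131 CPM with it. Its Cast allele had 40.7, 36.4 and 43.4 CPM before and 172, 166 and 157 CPM after stimulation. All stimulated samples were above all naive ones on both alleles, and the naive and stimulated ranges were far apart. The log2 fold change was 2.02 (SE 0.15, adjusted p = 3.88e-05) on the 129 allele and 2.04 (SE 0.13, adjusted p = 2.29e-06) on the Cast allele in edgeR's test. These were the largest fitted fold changes among the TRiC subunits on either allele. Tcp1 overlaps Mrpl18 and Acat3 on the opposite strand and a small nucleolar RNA, Snora20, on its own strand in the GENCODE annotation, so reads in the overlaps could be shared or lost.

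Cct2, the beta subunit, had 95.1, 104 and 103 CPM in naive and 327, 421 and 351 CPM in stimulated samples on the 129 allele. Its Cast allele gave 60.7, 66.4 and 59.3 CPM and then 211, 220 and 213 CPM. The groups did not overlap, and the Cast values of the stimulated samples lay within a few percent of each other. Its log2 fold changes were 1.86 (SE 0.13, adjusted p = 3.06e-05) on the 129 and 1.79 (SE 0.12, adjusted p = 2.54e-06) on the Cast allele in edgeR's test.

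Cct4, the delta subunit, had 156, 147 and 196 CPM in naive and 439, 490 and 512 CPM in stimulated samples on the 129 allele. The Cast values were 134, 122 and 171 CPM, and 400, 388 and 409 CPM. Replicate 3 was the highest naive sample on both alleles, and the groups did not overlap. With log2 fold changes of 1.53 (SE 0.14, adjusted p = 1.01e-04) and 1.49 (SE 0.15, adjusted p = 2.31e-05) on the 129 and Cast alleles in edgeR's test, Cct4 rose less than Tcp1 and Cct2 in each of the same-numbered pairs of samples, with alleles summed.

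Cct8, the theta subunit, had 38, 50 and 45 reads on the 129 allele in the naive samples, so its naive values carry more counting error. Its CPM on the 129 allele were 16.4, 20.8 and 22.6 in naive and 59.7, 43.2 and 54.4 in stimulated samples. For the Cast allele they were 13.6, 15.5 and 18.5 and then 62.4, 54.6 and 54.2. The groups did not overlap on either allele. The log2 fold change was 1.40 (SE 0.21, adjusted p = 0.00103) on the 129 and 1.85 (SE 0.18, adjusted p = 2.32e-05) on the Cast allele in edgeR's test. Cct8 overlaps Usp16 on the opposite strand. The kit keeps strand, but the strand setting of the count is not given in the sources used here, so reads of the partner cannot be told apart.

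Hspe1, which encodes the Hsp10 lid of the mitochondrial chaperonin, rose most of all members on both alleles. It had 136, 106 and 152 CPM in naive and 779, 769 and 738 CPM in stimulated samples on the 129 allele. The Cast allele gave 66.7, 50.9 and 87.2 CPM and then 376, 354 and 361 CPM. Naive replicate 2 was the lowest on both alleles, while the stimulated samples were close together. Its log2 fold changes were 2.54 (SE 0.15, adjusted p = 1.92e-05) and 2.42 (SE 0.19, adjusted p = 5.64e-06) in edgeR's test, or 5.80-fold and 5.34-fold. Hspe1 overlaps Hspd1, its head-to-head neighbour, on the opposite strand, and GENCODE lists 6 pseudogenes under its name, which could take or lend reads.

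Cct3, the gamma subunit, did not pass the test. It had 20.2, 29.9 and 34.1 CPM in naive and 37.0, 20.2 and 28.3 CPM in stimulated samples on the 129 allele. Its Cast values were 17.0, 22.0 and 22.3 CPM, and 24.9, 13.0 and 29.0 CPM. The groups overlapped on both alleles, and stimulated replicate 2 was the lowest sample on each. The log2 fold change was 0.02 (SE 0.30, adjusted p = 0.952) on the 129 allele and 0.13 (SE 0.30, adjusted p = 0.730) on the Cast allele in edgeR's test. With both alleles summed it was 0.11 (SE 0.26, adjusted p = 0.724). The reads behind these values were few: 47, 72 and 68 in naive and 103, 57 and 81 in stimulated samples on the 129 allele, and 45, 61 and 52 against 79, 42 and 98 on the Cast allele. GENCODE lists 1 pseudogene under the name of Cct3.

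Cct7, the eta subunit, had 0, 2 and 2 reads in naive and 2, 5 and 4 reads in stimulated samples on the 129 allele. The Cast tables held 1, 1 and 0 reads, and 2, 6 and 3 reads. These counts lie at or near the 3 reads taken as the floor of detection, so no fold change is given. Cct7 overlaps Pradc1 on the opposite strand, and the reads that mark its alleles were too few to describe it.

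Cct5, the epsilon subunit, showed the most uneven samples. On the 129 allele it had 118, 123 and 50.6 CPM in naive and 394, 369 and 117 CPM in stimulated samples, with replicate 3 below the others in both groups. On the Cast allele it had 114, 104 and 234 CPM and then 396, 373 and 842 CPM, with replicate 3 above the others in both groups. The groups overlapped on the 129 allele and did not overlap on the Cast allele. The 129 log2 fold change of 1.59 (SE 0.57) missed the threshold in edgeR's test (adjusted p = 0.0578), while the Cast value of 1.84 (SE 0.39) passed it (adjusted p = 0.00268). With both alleles summed, the CPM were 138, 135 and 177 in naive and 483, 449 and 621 in stimulated samples. The summed log2 fold change was 1.79 (SE 0.16, adjusted p = 7.79e-06).

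Same-numbered naive and stimulated samples deviated together, and a fit with the replicate number as a block gave another call for Cct5. In this fit the 129 log2 fold change of Cct5 was 1.53 (SE 0.13, adjusted p = 6.23e-08 in edgeR's test). The 129 count with the replicate block was then 6 of 7 members higher, against 33.1% of all tested genes. Without stimulated replicate 3 alone, the 129 value of Cct5 was 1.97 (adjusted p = 0.00805). Its Cast call was lost in one setting, with no filter on low counts, where the log2 fold change was 1.92 (adjusted p = 0.0532).

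**Figure D2:**
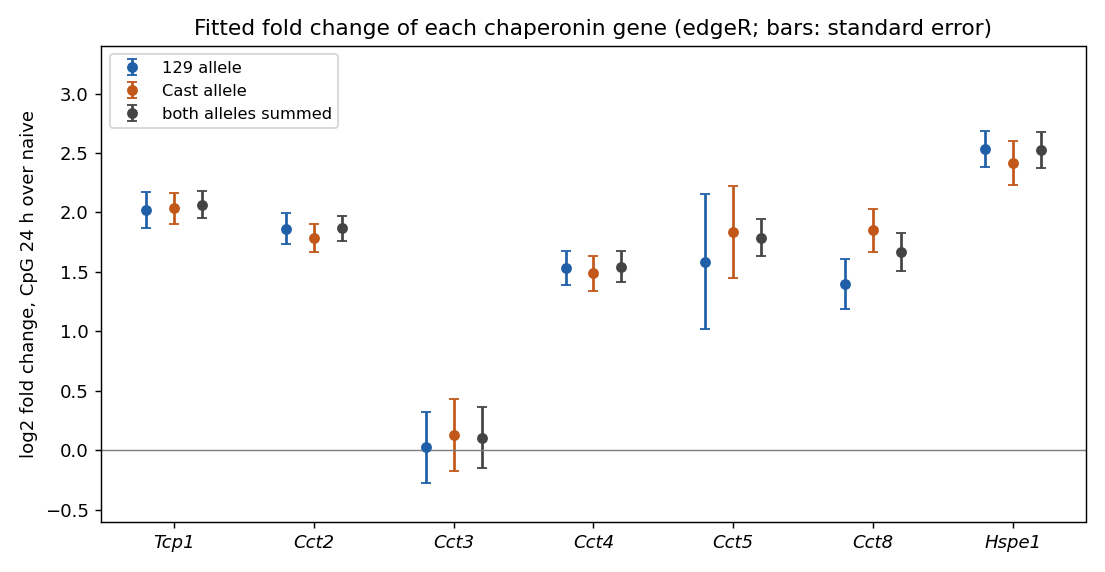
Fitted log2 fold change of each tested chaperonin gene, CpG over naive, on the 129 allele, the Cast allele and with both alleles summed; bars are the standard error of the edgeR fit with 3 samples per group. The other 5 genes besides Cct3 and Hspe1 lie between 1.40 and 2.06, Cct3 lies near 0, and the bars of Cct5 shorten when the alleles are summed.

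How evenly the TRiC subunits rose was measured by the SD of their fitted log2 fold changes. It was 0.71 over the 6 subunits on the 129 allele and 0.71 on the Cast allele, against 1.86 and 1.90 over all tested genes. Cct3 was then left out because its fold change had been seen to lie apart, a choice that by itself makes the spread smaller. Without it the SD was 0.25 over the remaining 5 on the 129 allele and 0.20 on the Cast allele, and 0.20 with both alleles summed. The standard errors of the 6 single fold changes ranged from 0.12 to 0.57 over both alleles. The other 5 subunits spanned log2 fold changes of 1.57 to 2.21 between the summed CPM of the samples numbered 1, 1.48 to 2.12 for those numbered 2, and 1.36 to 1.87 for those numbered 3. Cct3 lay below that span in each pair, at 0.77, -0.63 and 0.09. Tcp1 was the highest of the 6 in each pair, and Cct4 or Cct8 the lowest of the 5.

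The subunits were then compared with the sum of the TRiC genes found, by a fit in which the summed TRiC reads took the place of each library's size. The sum held the tested subunit too. Over both alleles, Cct4, Cct5 and Cct2 made up on average 34.9%, 28.7% and 18.4% of it in naive samples. Here a gene passes when its fold change differs from that of the TRiC sum, and most genes do: 79.7% of those tested on the 129 allele, 82.2% on the Cast allele and 87.7% with both alleles summed. Among the 6 subunits, Cct3 passed on the 129 allele, where its log2 fold change relative to the TRiC sum was -1.56 (SE 0.31, adjusted p = 0.00132 in edgeR's test). On the Cast allele it was -1.61 (SE 0.38, adjusted p = 4.00e-05). No other subunit passed on either allele alone. With both alleles summed Tcp1 passed as well, at 0.38 above the sum (SE 0.16, adjusted p = 0.0376), and Cct3 was at -1.58 (SE 0.24, adjusted p = 1.01e-05). Cct2, Cct4, Cct5 and Cct8 lay between -0.14 and 0.17 in the summed fit and did not pass. For Cct2, Cct4 and Cct5 this was partly fixed by the fit, as they make up most of the sum. Their values therefore do not show an even rise. With the replicate block Tcp1 passed in every table, with an adjusted p = 0.0410 on the 129 allele, 0.0325 on the Cast allele and 0.0124 with both alleles summed, where 89.7% of tested genes passed.

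In reads, the 7 TRiC genes found had 2023, 2114 and 2165 reads over both alleles before CpG and 7926, 8087 and 9185 after it. The share of Cct3 among them was 5.46% ± 0.87 (SD, n = 3) before and 1.82% ± 0.55 (SD, n = 3) after stimulation. The share of Tcp1 went from 8.42% ± 0.34 to 10.9% ± 1.10. Cct5 held 28.7% ± 1.11 and then 30.7% ± 3.50, a difference smaller than the spread of the stimulated samples. Cct8 held 4.04% ± 0.37 and 3.99% ± 0.52. These shares depend on gene length and on how many strain differences a gene carries, so they say how a gene's part changed and not how much of each subunit was there. Hspe1 rose more than the TRiC sum on both alleles, by a log2 fold change of 0.94 (SE 0.18, adjusted p = 9.76e-04) on the 129 and 0.76 (SE 0.32, adjusted p = 0.0210) on the Cast allele in edgeR's test.

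The Cast share, a gene's Cast reads over its reads of both alleles, showed whether the alleles contributed alike. Over all matched autosomal genes it was 52.7% ± 0.79 in naive and 52.9% ± 0.81 in stimulated samples (SD, n = 3 each). Cct4 was at 49.6% ± 0.85 and 49.0% ± 1.72. Hspe1 lay lowest, at 37.2% ± 2.55 and 35.6% ± 1.01, with no sample above 40.1%. Cct2 was also below the autosomal mean in every sample, at 41.6% ± 1.25 and 40.5% ± 2.64, while Tcp1 was above it in every sample, at 58.5% ± 1.90 and 58.8% ± 1.96. Cct3 had 46.0% ± 2.79 and 46.9% ± 6.85. The Wilson 95% interval of Cct3 in stimulated replicate 2, its thinnest stimulated sample, ran from 33.2% to 52.3% over 99 reads, and such intervals cover counting error only.

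**Figure D3:**
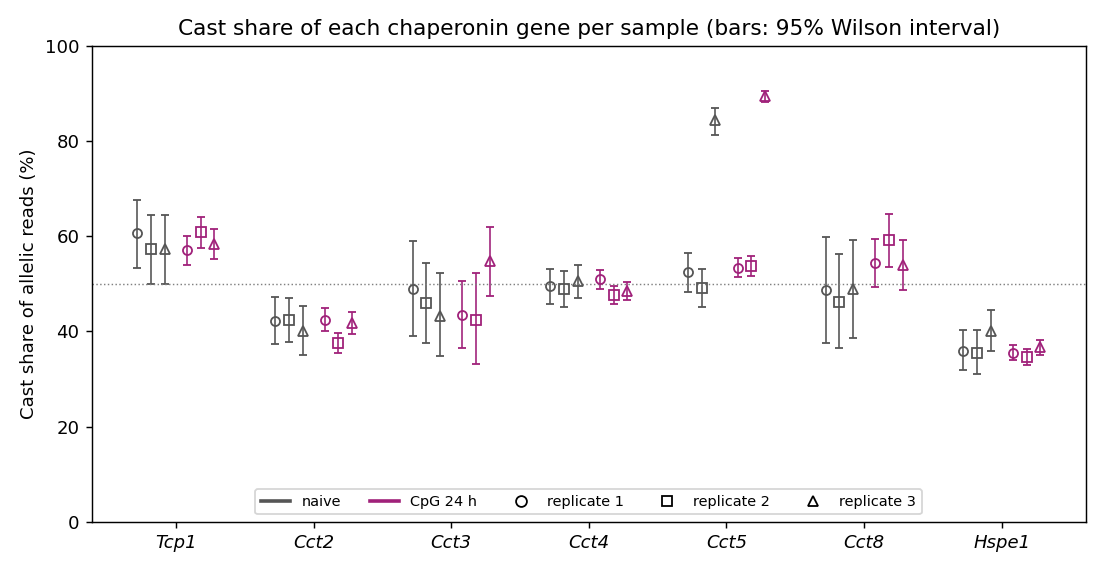
Cast share of the allelic reads of each tested chaperonin gene in the 3 naive (grey) and 3 CpG samples (purple); bars are Wilson 95% intervals and the dotted line marks 50%. Hspe1 and Cct2 lie below 50% and Tcp1 above it in every sample, and the samples numbered 3 of Cct5 lie at 84.4% and 89.4%.

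A change of the Cast to 129 ratio with CpG was tested for each gene as an interaction of allele and treatment in edgeR, in a model that also fits each sample. No member passed, and 1.01% of the 10089 autosomal genes tested did. At an unadjusted p of 0.05 no member passed either. Cct8 came nearest: its Cast share was 48.6%, 46.2% and 48.9% in naive and 54.4%, 59.2% and 54.0% in stimulated samples. The log2 change of its ratio was 0.46 (SE 0.20) with an unadjusted p of 0.0519 and an adjusted p = 0.437. For Tcp1, Cct2, Cct3, Cct4 and Hspe1 the log2 change of the ratio lay between -0.10 and 0.06, with standard errors of 0.09 to 0.28. With the replicate block 7.79% of genes passed but still no member. For Cct5 the ratio then changed by 0.30 on the log2 scale (SE 0.12, unadjusted p = 0.0142, adjusted p = 0.127), against 0.30 (SE 1.22, adjusted p = 1) without the block. Without the block this value had no stable direction: it ran from -0.58 without stimulated replicate 3 to 1.05 without naive replicate 3, and it was also below 0 without naive replicate 1 or 2.

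The Cast share of Cct5 was 52.4%, 49.1% and 84.4% without CpG and 53.4%, 53.8% and 89.4% in the stimulated ones. The samples numbered 3 stood apart in both groups by over 30 percentage points, and the others were near the autosomal mean. The same was seen in genes beside Cct5 on chromosome 15. Of the 10 nearest genes on either side with at least 40 reads in every sample, 11 of 20 (55%) had a Cast share over 10 points higher in both samples numbered 3 than in either other sample of its group. The same held for 7.29% of 247 such genes on the whole of chromosome 15 and 3.49% of 6559 on all autosomes. Mtdh, the next gene, had a Cast share of 54.7%, 55.5% and 89.3% in naive and 52.8%, 54.1% and 89.1% in stimulated samples. Rpl30, which encodes a ribosomal protein, had 29.9%, 29.3% and 98.2% and then 24.9%, 28.9% and 98.9%. Both were chosen after their values were seen. Beyond the tenth gene, the plot of shares by gene order shows further genes with high shares in these samples, among them Dcaf13 and Eif3e.

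**Figure D4:**
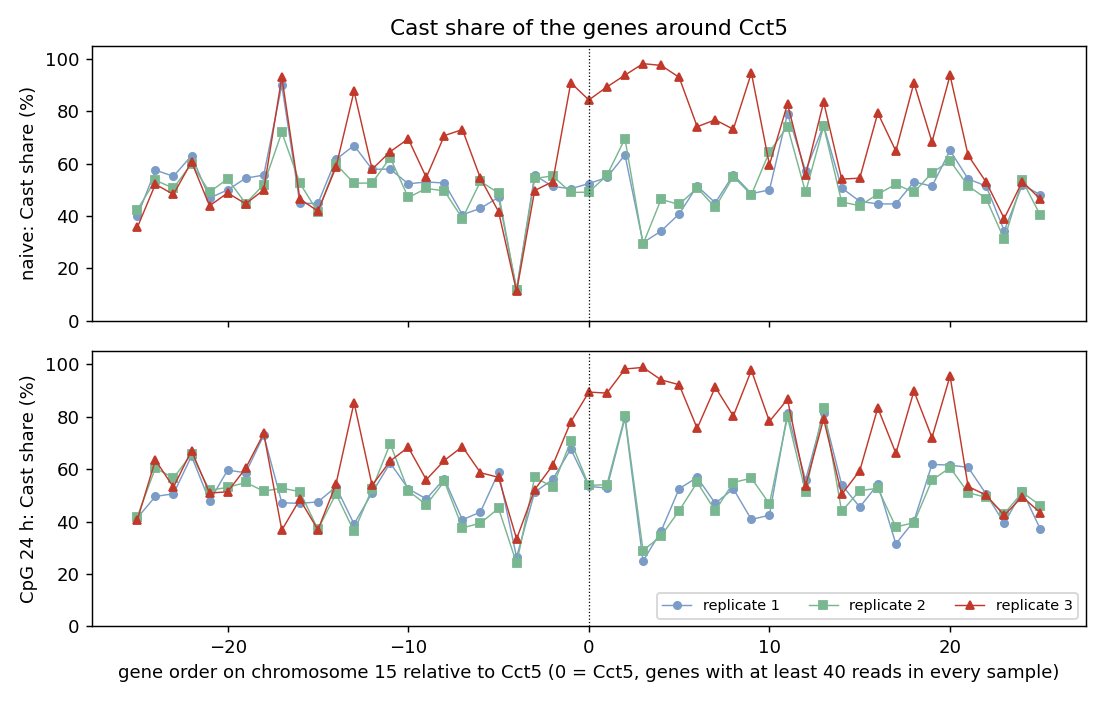
Cast share of genes in their order on chromosome 15 around Cct5 (position 0), in the naive samples (top) and the CpG samples (bottom); colours give the replicate number. From Cct5 to the ninth gene after it the samples numbered 3 (red) lie above the other samples in both groups, at 73.2% or more.

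The corresponding stretches around the other members did not show this. The median Cast share of the 10 nearest genes was 50.9%, 49.9% and 90.1% in the naive and 52.7%, 53.7% and 83.6% in the stimulated samples for Cct5. For the neighbours of Cct2 it was 52.1%, 52.6% and 52.5% in the naive samples. Around the other members the neighbours' medians lay between 45.0% and 58.0% in all samples. Leaving out both samples numbered 3, a choice made after seeing the data, the 129 log2 fold change of Cct5 was 1.66 and passed the test in edgeR (adjusted p = 0.00116).

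Partner proteins of the chaperonins were described from lists. Their counts stand against the shares of all tested genes, which were 28.2% higher and 27% lower on the 129 allele and 30.7% higher and 31.5% lower on the Cast allele. Prefoldin, which hands unfolded tubulin and actin to TRiC, had 4 of 6 tested genes higher and none lower on the 129 allele, and 2 of 5 higher and 1 lower on the Cast allele, where the share higher is near that of all genes. Vbp1 lies on the X chromosome and was not tested on the Cast allele. Pfdn4 rose by log2 fold changes of 2.14 (129) and 2.03 (Cast). Pfdn5 was the lowest of the list: it fell by 0.90 on the log2 scale on the Cast allele (adjusted p = 0.00233 in edgeR's test) and had -0.36 on the 129 allele (adjusted p = 0.346), where it had about 10 CPM or less in each sample. The phosducin-like cofactors of TRiC and Txndc9 were 3 of 3 higher on the 129 allele and 1 of 2 on the Cast allele. Pdcl3 rose by 1.03 (129) and 1.18 (Cast), and Pdcl, which helps fold G protein beta subunits, had 0.63 (129, passing) and 0.25 (Cast, adjusted p = 0.169).

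Among TRiC client proteins, 6 of 12 tested genes were higher and none lower on the 129 allele, and 6 of 12 higher and 1 lower on the Cast allele, against the 28.2% and 30.7% of all genes that were higher. The lower one was Tubb2a at -0.91 (adjusted p = 0.0450 in edgeR's test), named, like Cdc20 and Clpx below, after its value was seen. Tubb5, named likewise, did not pass on the 129 allele, at 2.64 (SE 1.75, adjusted p = 0.256). It had 335, 20.8 and 22.1 CPM in naive and 2123, 116 and 122 CPM in stimulated samples there. Replicate 1 was the highest on the 129 allele and the lowest on the Cast allele in both groups. The Cast value of Tubb5 passed, at 2.66 (SE 0.40, adjusted p = 3.4e-04). Tubb6, a beta-tubulin, was the highest on the 129 allele with a log2 fold change of 5.69 (SE 1.03), and had 4.25 (SE 0.39) on the Cast allele, where Cdc20 was higher at 4.52. Its 129 levels were 1.29, 2.91 and 1.00 CPM in naive and 17.6, 113 and 150 CPM in stimulated samples, with stimulated replicate 1 well below the others. Gnb1, a G protein beta subunit, was the lowest on the 129 allele at -0.36, had -0.21 on the Cast allele, and passed on neither. The tubulin folding cofactors, which take tubulin from TRiC, had 3 of 5 higher on each allele. Tbcb rose by 1.06 and 1.33, while Tbce had -0.22 and -0.04. The chaperonin-like genes, relatives of TRiC that include the Bardet-Biedl proteins, had 0 of 3 higher on the 129 allele and 1 of 3 on the Cast allele, a share near the 30.7% of all genes. Bbs12 had 1.71 (129, adjusted p = 0.0707) and 1.43 (Cast, adjusted p = 0.0364), and Bbs10 had -0.58 and -0.01, each from under 20 CPM.

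The mitochondrial chaperones and proteases, the setting in which Hsp10 works, had 6 of 10 tested genes higher on the 129 allele and 7 of 10 on the Cast allele, with none lower, where 28.2% and 30.7% of all tested genes were higher. Hspa9, the mitochondrial Hsp70, was the highest with 2.30 (SE 0.11) and 2.27 (SE 0.12). Its 129 levels were 286, 248 and 270 CPM before and 1281, 1294 and 1377 CPM after stimulation. Yme1l1, a protease of the inner membrane, was the lowest on the 129 allele at 0.18, had 0.21 on the Cast allele, where Clpx was lower at 0.15, and passed on neither. In the cytosolic Hsp70 and Hsp90 system 10 of 13 genes were higher on the 129 allele and 10 of 14 on the Cast allele, where 1 was lower. Stip1, which links Hsp70 to Hsp90, rose by 2.15 and 2.26. Dnajb6, an Hsp40 co-chaperone, had 0.24 on the 129 allele (adjusted p = 0.384) and fell by 1.61 on the log2 scale on the Cast allele (adjusted p = 2.61e-05 in edgeR's test). Its Cast to 129 ratio changed, by a log2 value of -1.84 (SE 0.18, adjusted p = 0.00799 in the interaction test). Of the heat shock factors, Hsf2 rose by 1.00 and 1.71, and Hsf1 had 0.21 and 0.03 and did not pass.

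**Figure D5:**
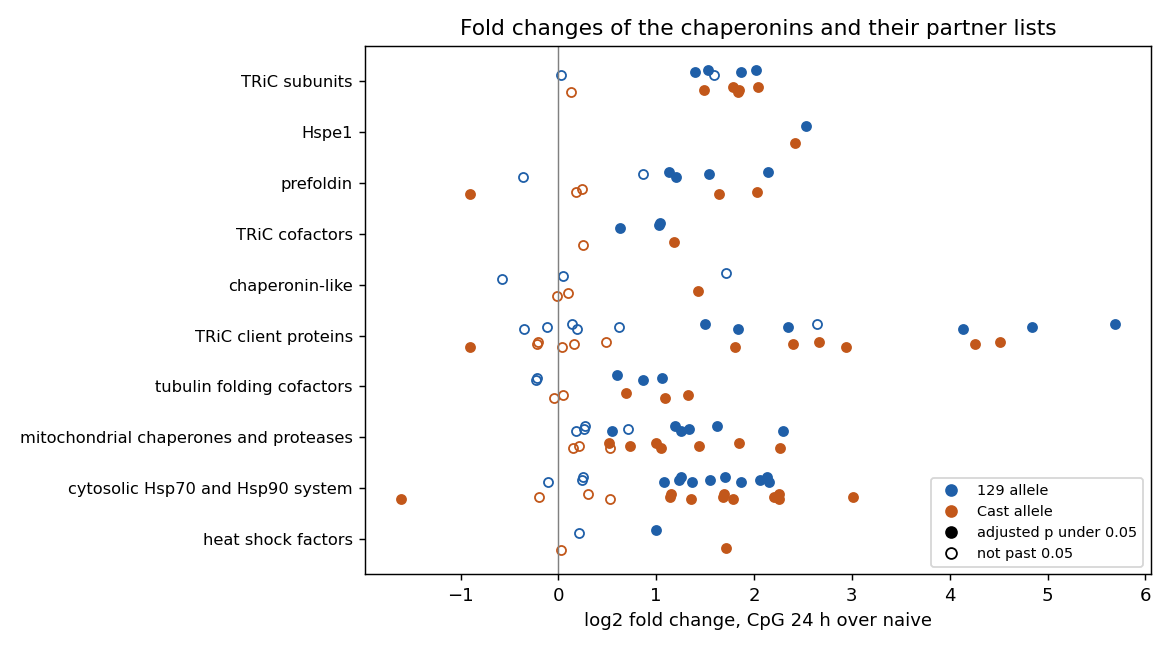
Log2 fold changes, CpG over naive, of the tested TRiC subunits, Hspe1 and the genes of each partner list on the 129 allele (blue) and the Cast allele (orange); filled points are under an adjusted p of 0.05 by edgeR. The 5 TRiC subunits other than Cct3 lie between 1.40 and 2.04, and the partner lists reach from -1.61 to 5.69.

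The medians of these 8 lists stand beside that of the TRiC subunits. On the 129 allele the median log2 fold change was 1.17 for prefoldin, 1.03 for the cofactors, 1.66 for the clients, 0.95 for the mitochondrial list and 1.37 for the Hsp70 and Hsp90 system, against 1.56 for the TRiC subunits. It was 0.60 for the tubulin folding cofactors, 0.04 for the chaperonin-like genes and 0.60 for the heat shock factors. On the Cast allele the first 5 medians were 0.24, 0.72, 1.15, 0.86 and 1.52 and the last 3 were 0.69, 0.10 and 0.87, against 1.81 for the TRiC subunits. For prefoldin, the cofactors, the clients and the Hsp70 and Hsp90 system, the genes tested differed between the alleles. The medians of these lists therefore do not compare the alleles gene by gene. Over the 12 values of both alleles, the genes whose CPM profile lay nearest to the mean TRiC profile were Utp15, Ccdc25, Mfsd7b, Esf1 and Wdr75, among 4228 autosomal genes ranked with a mean of at least 100 reads in both tables. Their root mean square difference from it ranged from 0.110 to 0.126 on the log2 scale. By the same measure Cct4 differed by 0.18, Cct8 by 0.19, Cct2 by 0.27, Tcp1 by 0.32, Cct5 by 0.54, Hspe1 by 0.56 and Cct3 by 0.76. The mean TRiC profile included Cct3, and each subunit was compared with a mean that held it. The 5 nearest genes had log2 fold changes of 1.26 to 1.41 (129) and 1.31 to 1.56 (Cast), below the TRiC medians. Nearness to this mean is thus not nearness to the typical subunit.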

How the data were processed

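Splenic B cell RNA was prepared with a stranded total RNA kit, per the labels. The authors deposited raw read counts per gene, 1 table per sample for each strain annotation. The submitters' processing notes name STAR, featureCounts, Subread 2.0.0 and mm10, while the deposited tables end with tallies in the format of htseq-count; how reads were given to a strain is not given in the sources used here. These tallies stayed out of library sizes. Reads tallied as in no counted feature made up 48.1% to 67.1% (129) and 44.5% to 62.1% (Cast). These are shares of the reads counted to a gene, to no feature or as ambiguous. In the 129 tables they were 62.65%, 65.2% and 67.1% in naive and 56.7%, 48.1% and 52.8% in stimulated samples. On both alleles every naive sample had a higher share, and fewer reads in genes, than every stimulated one. The part of this difference in the fold changes was not tested. Another deposited table, of group means, was not used.

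Each strain's tables were fitted with edgeR 4.0.16 (R 4.3.3; TMM, filterByExpr, robust quasi-likelihood test, Benjamini-Hochberg over all genes, threshold 0.05). Standard errors came from the quasi-likelihood F statistic. For the TRiC comparison the library size was the sum over the TRiC genes found: the design listed 8, of which 7 were found and 6 tested. The ratio test took genes whose alleles together had 10 or more reads in 3 or more samples. CPM used TMM-scaled totals. Deviations of same-numbered samples from their group means correlated across genes, with r = 0.56, 0.44 and 0.61 in the 129 tables. In the Cast tables r was 0.23, 0.16 and 0.25. The replicate numbers of the titles were therefore taken as pairs in the replicate block and in the pair comparisons. The main fits held no term for the replicate number. The alternatives were DESeq2 1.42.0, RLE factors, no filter, the replicate block, summed alleles and leaving out each sample.

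The fits were tested on simulated data with 200 changed genes each: 2-fold changes were recovered for 87% (129 fit), 90% (Cast fit) and 48.5% (ratio fit) of them, and 4-fold changes for 100%, 100% and 99%. The members and lists were chosen with earlier results of these data known. Named genes were the members, the highest and lowest 129 fold change of each list among genes tested in both tables, and the 5 genes nearest to the TRiC profile. That profile was the mean of the tested subunits' log2(CPM + 0.5), centred per table. Motifs were searched in RefSeq windows, 1 per gene.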

Additional observations from a re-analysis of the deposited data

Results flagged for a closer look

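Dnajb6, an Hsp40 co-chaperone of the cytosolic Hsp70 and Hsp90 list, responded differently on the 2 alleles, by a log2 change of the Cast to 129 ratio of -1.84 (SE 0.18, adjusted p = 0.00799 in edgeR's interaction test). Its Cast levels were 77.6, 88.7 and 91.9 CPM in naive and 32.5, 24.4 and 27.8 CPM in stimulated samples, without overlap. Its 129 levels were 50.8, 49.9 and 66.2 CPM and then 79.5, 48.2 and 69.5 CPM, which overlap. In the test 1.01% of all genes passed.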

How the results depend on the processing

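Over the settings run, Cct3 had log2 fold changes of -0.20 to 0.42 on the 2 alleles and never passed (adjusted p 0.144 to 0.998). The other members kept a positive fold change in 144 of 144 values, from 1.28 to 2.68, and 136 of these passed. The calls that changed were those of Cct5. Leaving out 1 sample at a time gave TRiC medians of 1.47 to 1.69 (129) and 1.65 to 1.88 (Cast), and summing the alleles gave 1.73. The spread without Cct3 was 0.25 (129) and 0.20 (Cast). For the subunits departing from the TRiC sum, 1 on each allele, the replicate block gave 2 on both alleles and summed alleles 2. With the geometric mean of the subunits it was 3 (129) and 2 (Cast), without Cct5 in the sum 2 (Cast), and with 1 sample left out 1 to 2 (129). The count of genes with a changed Cast to 129 ratio was 102, 786 with the replicate block, and 15 to 29 with 1 sample left out; no member passed in any of these, and the Cct5 ratio ran from -0.58 to 1.05 with 1 sample left out. Beyond Cct5, same-numbered pairing changed the call of Tcp1 relative to the TRiC sum on both alleles, and no other call of the members. The cause of these changes was not tested. Cct3, Cct8 and above all Cct7 are limited by depth, and the ratio fit recovered 48.5% of simulated 2-fold changes, so a member that did not pass there is not shown to keep its ratio.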
